A study of Mus musculus with 8 samples.

Results

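Nr1d1, Nr1d2 and Rora encode REV-ERBα, REV-ERBβ and RORα, nuclear receptors that act as opposing arms of the liver clock. They were taken by symbol from a deposited table of liver RNA and are 3 of the 48323 gene symbols whose entries carried the status OK in all 8 libraries. The IDs are ENSMUSG00000020889.11 for Nr1d1, ENSMUSG00000021775.10 for Nr1d2 and ENSMUSG00000032238.17 for Rora. All mice were wild-type C57BL/6 and were exposed for 30 weeks, with 2 liver libraries in each of 4 groups. LL-PM2.5 combined constant light with PM2.5, the fine particulate fraction of polluted air, and LL-FA combined constant light with filtered air. LD-PM2.5 combined a light/dark cycle with PM2.5, and LD-FA, the baseline, a light/dark cycle with filtered air. The design asks how polluted air and constant light, apart and together, bear on the liver clock. Nothing in the labels ties the 2 libraries of a group to different animals, so p-values may not measure the spread between animals. No source used here gives the sex or age of the mice or the hour of collection.

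REV-ERB proteins bind DNA at ROR response elements and recruit the corepressor NCoR with the deacetylase HDAC3, for which they need heme as ligand. ROR proteins bind the same elements and recruit coactivators, so repressor and activator compete for sites such as those at Arntl, the gene of the clock activator BMAL1. CLOCK and BMAL1 in turn drive the REV-ERB genes through E-box elements. In mouse liver Nr1d1 is among the transcripts of largest daily rhythm, Nr1d2 oscillates less, and Rora varies little over the day. REV-ERBs also repress hepatic genes of lipid, bile acid and glucose metabolism, in part by tethering to liver transcription factors without contacting their own DNA element.

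The sequences printed here show sites where the receptors are known to act and the bases before both REV-ERB genes. They come from RefSeq on GRCm38.p6, 5′ to 3′ on the coding strand, and entries were found for Nr1d1, Nr1d2, Rora, Arntl, Npas2 and Dbp. The Arntl sites lie at chr7:113207494-113207518 and chr7:113207530-113207554 on the plus strand, and capitals mark their 11-base matches to the pattern described next. The upstream stretches of 250 bases lie at chr11:98775378-98775627 for Nr1d1 and chr14:18239107-18239356 for Nr1d2, both on the minus strand. The capitals in Nr1d2 mark AGGTCA, the core that nuclear receptors recognise, and Nr1d1 holds none.
Arntl, upper site: tggtcggAAAGTAGGTTAgtggtgc
Arntl, lower site: aaggcagAAAGTAGGTCAgggacgg
Nr1d1, upstream: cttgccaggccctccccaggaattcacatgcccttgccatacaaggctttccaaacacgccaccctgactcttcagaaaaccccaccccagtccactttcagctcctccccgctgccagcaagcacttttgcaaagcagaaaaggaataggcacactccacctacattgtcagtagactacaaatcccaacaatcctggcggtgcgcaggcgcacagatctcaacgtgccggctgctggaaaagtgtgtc
Nr1d2, upstream: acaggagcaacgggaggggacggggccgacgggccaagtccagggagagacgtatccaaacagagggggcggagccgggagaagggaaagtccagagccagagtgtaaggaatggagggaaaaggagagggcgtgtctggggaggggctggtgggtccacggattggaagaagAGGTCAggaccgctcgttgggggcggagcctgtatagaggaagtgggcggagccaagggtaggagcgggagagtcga

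A set of 5 letter patterns was searched on both strands in windows from 250 bases before to 50 bases after each RefSeq start. The 11-base pattern of the capitals at Arntl, with any base allowed at the only position where the sites differ, was chosen with the Arntl sequence known. It was found in 20 of 32851 windows, or 0.0609%. In the window of the second Arntl start, chr7:113207261-113207560, it occurred at positions -10 and 26 relative to the start, and the match at 26 also fits the ROR response element consensus. That consensus was found in 126 windows, or 0.384%. AGGTCA lies within the match at 26, so these patterns overlap there. AGGTCA was found in 16.3% of windows, and in Nr1d2 it stood at position -77. The E-box CACGTG was found in 7.15% of windows and the D-box TTATGNAA, which DBP and NFIL3 bind, in 3.38%. None of the 5 patterns was present in the windows of Nr1d1, Rora, Npas2 or Dbp. A match describes the letters only.

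Estimated fragments per library ran from 22215000 to 31819000. Hepatocyte markers, 5 of 6 measured, summed to between 1.88e+04 and 2.84e+04 FPKM, the authors' fragments scaled to transcript length and depth. Markers of other tissues were uneven. The 8 pancreas markers summed to 302 FPKM in LL-PM2.5 replicate 2, to 107 FPKM in LD-PM2.5 replicate 1 and to 2.99e+03 FPKM in LD-FA replicate 1, against 17.7 to 34.7 FPKM in the other 5 libraries. The 6 skeletal muscle markers summed to 423 FPKM in LL-FA replicate 1, and to 224 and 24.6 FPKM in the LD-FA pair, against 0.513 to 1.17 FPKM elsewhere. The 4 adipocyte markers reached 35.9 FPKM in LL-FA replicate 1 against 1.94 to 10.8 in the rest. The 5 erythroid markers summed to 206 and 221 FPKM in LL-PM2.5 and to 126 and 155 FPKM in LL-FA. They summed to 107 and 115 FPKM in LD-PM2.5 and to 227 and 148 FPKM in LD-FA. Their sum was thus higher in PM2.5 than in filtered air in constant light and lower in the light/dark cycle, with no overlap in either, and its part in the results was not tested.

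By mean FPKM over the 8 libraries, which scales for length, Nr1d1 was the most abundant at 25.6 FPKM, followed by Nr1d2 at 12.6 FPKM and Rora at 7.34 FPKM. Among the 11316 genes tested, those that reached 1 FPKM in 2 or more libraries, they ranked 2245, 3735 and 5259. The spread followed the same order. The highest library exceeded the lowest 9.45-fold for Nr1d1, 2.88-fold for Nr1d2 and 2.01-fold for Rora.

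**Figure D1:**
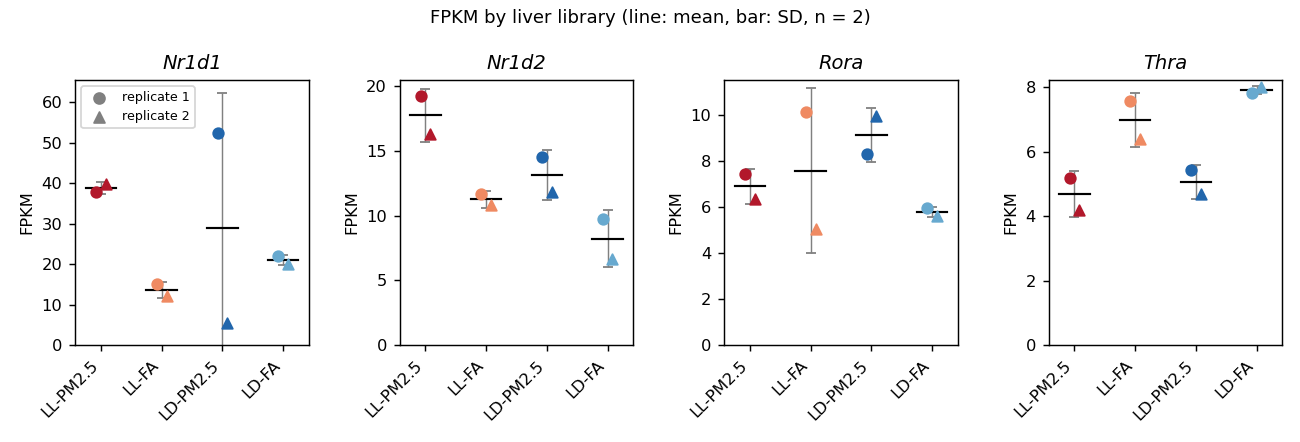
FPKM of Nr1d1, Nr1d2, Rora and Thra in each library, with groups along the x axis; circles and triangles are replicates, the line is the group mean and the bar its SD (n = 2), which for Nr1d1 in LD-PM2.5 runs below 0 and is clipped there. Nr1d2 lies above 11.7 FPKM in all 4 PM2.5 libraries, while Nr1d1 is at 52.5 and 5.55 FPKM in the LD-PM2.5 pair.

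Nr1d2, the gene of REV-ERBβ (chromosome 14, 18204054 to 18239127, minus strand, GRCm38/mm10), had a positive log2 fold change in all 8 comparisons. It stood at 19.2 and 16.3 FPKM in LL-PM2.5 and at 11.7 and 10.8 FPKM in LL-FA. In LD-PM2.5 it stood at 14.5 and 11.8 FPKM, and in LD-FA at 9.76 and 6.65 FPKM. Every PM2.5 library lay above every filtered air library, by the narrow margin of 11.8 over 11.7 FPKM. The group means were 17.7 ± 2.06 FPKM in LL-PM2.5, 11.3 ± 0.647 in LL-FA, 13.2 ± 1.92 in LD-PM2.5 and 8.21 ± 2.19 in LD-FA (SD, n = 2 each). The means descend from LL-PM2.5 through LD-PM2.5 and LL-FA to LD-FA. Neither LL-PM2.5 and LD-PM2.5 nor LL-FA and LD-FA differed past the threshold, and LL-FA and LD-PM2.5 were not compared by a test. As CPM, the fragments scaled to the library total only, LD-PM2.5 replicate 2 was at 79.2 and LL-FA replicate 2 at 80.8, so the complete separation by air holds on the FPKM scale only. The other PM2.5 libraries had 109 and 125 CPM in LL-PM2.5 and 81.9 CPM in LD-PM2.5. The other filtered air libraries had 65 CPM in LL-FA and 58.1 and 50 CPM in LD-FA.

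Averaged over both light regimes, the log2 fold change of Nr1d2 for PM2.5 against filtered air was 0.62 ± 0.12 (SE), with an unadjusted p = 0.000912 and an adjusted p = 0.325 in edgeR's quasi-likelihood test. It therefore did not pass at 0.05 after Benjamini-Hochberg adjustment over all tested genes. The size was similar in each light regime, at 0.67 ± 0.17 for LL-PM2.5 against LL-FA (adjusted p = 0.989) and 0.58 ± 0.17 for LD-PM2.5 against LD-FA (adjusted p = 0.422). The interaction, the difference between these effects, was 0.09 ± 0.23. For constant light the changes were 0.50 ± 0.17 in PM2.5 and 0.42 ± 0.17 in filtered air, and 0.46 ± 0.12 on average (adjusted p = 0.583). For both exposures against neither, LL-PM2.5 against LD-FA, it was 1.08 ± 0.17 (adjusted p = 0.214). DESeq2 called Nr1d2 in this last comparison, at 1.09 (adjusted p = 8.84e-06), and in the average over light, at 0.62 (adjusted p = 0.00113), and edgeR without the filter on low genes called it in both and in LL-PM2.5 against LL-FA. Over all alternatives the adjusted p ran from 8.84e-06 to 0.859 for LL-PM2.5 against LD-FA and from 0.00113 to 0.908 for the average.

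These values stand against a background that was nearly empty in edgeR. In the average of PM2.5 over light edgeR called 2 of 11316 genes, or 0.0177%, both higher in PM2.5, and none of the 3 receptor genes. At an unadjusted p under 0.05 it listed 1136 genes, or 10%, among them 1 of the 3, Nr1d2. DESeq2 called 161 genes, or 1.42%, Nr1d2 among them, and limma on log2(FPKM + 1) called 2 and no receptor gene. All 4 PM2.5 libraries lay above all 4 filtered air libraries in 1.59% of genes and below them in 1.81%. Nr1d2 is 1 gene of the first kind.

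Nr1d1, the gene of REV-ERBα (chromosome 11, 98767932 to 98775333, minus strand), differed most between the libraries of a group. It stood at 37.8 and 39.8 FPKM in LL-PM2.5 and at 15.1 and 12.2 FPKM in LL-FA. In LD-PM2.5 it stood at 52.5 and 5.55 FPKM, the highest and the lowest level of the series, and in LD-FA at 22.0 and 20.1 FPKM. The LL-PM2.5 libraries lay above those of LL-FA and of LD-FA, and the LL-FA libraries lay below those of LD-FA. The LD-PM2.5 pair spanned all the others. By mean, LL-PM2.5 was followed by LD-PM2.5, LD-FA and LL-FA, and of these neighbours only LL-FA and LD-FA did not overlap. The 9.45-fold gap of the LD-PM2.5 pair rests on 4149 and 327 fragments, and a gap at least as wide in those libraries was seen in 82 of the 11316 tested genes, or 0.725%. The other groups' pairs differed by 1.05-fold in LL-PM2.5, 1.24-fold in LL-FA and 1.10-fold in LD-FA.

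In constant light Nr1d1 averaged 38.8 ± 1.38 FPKM in LL-PM2.5 and 13.6 ± 2.07 FPKM in LL-FA (SD, n = 2 each). The log2 fold change was 1.5 ± 0.80, with an unadjusted p = 0.102 and an adjusted p = 0.989 in edgeR. Without the filter on low genes, where the spread is estimated over more genes, it was 1.51 ± 0.31 and passed (edgeR adjusted p = 0.000505). The libraries were the same in both fits, so the smaller error reflects how the spread was estimated and not closer replicates. That setting also called 647 genes in LD-PM2.5 against LD-FA, where the main fit called 0. In the main fit the error of Nr1d1 is set by LD-PM2.5 as well, since all 4 groups share 1 estimate of the spread. When LD-PM2.5 replicate 1 was left out, which leaves 1 library in that group, the change was 1.49 ± 0.17. Over all alternatives the adjusted p ran from 0.000505 to 1.

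In the light/dark cycle Nr1d1 averaged 29.0 ± 33.2 FPKM in LD-PM2.5 and 21.0 ± 1.36 FPKM in LD-FA (SD, n = 2 each), a log2 fold change of 0.49 ± 0.79 (edgeR adjusted p = 0.803). Its direction was set by the library kept. Without LD-PM2.5 replicate 1 the change was -1.93, and without LD-PM2.5 replicate 2 it was 1.35. Each of these fits leaves 1 library in LD-PM2.5, which then has no spread of its own, so only the size is given. On log2(FPKM + 1) limma gave -0.23. The pancreas markers summed to 107 FPKM in replicate 1 and 26.3 in replicate 2, and their part in the gap was not tested.

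The remaining comparisons of Nr1d1 carried the same error. The PM2.5 average over light was 0.99 ± 0.56 (adjusted p = 0.577), and without LD-PM2.5 replicate 1 it was -0.22. LL-PM2.5 against LD-PM2.5 gave 0.43 ± 0.78, with 2.85 ± 0.24 without LD-PM2.5 replicate 1 (edgeR adjusted p = 0.0549) and -0.42 without replicate 2. The interaction was 1.01 ± 1.11, and 3.42 without LD-PM2.5 replicate 1. The light average was -0.07 ± 0.56 and became 1.14 without that library. LL-FA against LD-FA does not involve it, and gave -0.58 ± 0.79 (adjusted p = 1). For both exposures together, LL-PM2.5 against LD-FA, the change was 0.92 ± 0.79 (adjusted p = 0.915).

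Rora, the gene of RORα (chromosome 9, 68653786 to 69388246, plus strand), varied least. It stood at 7.43 and 6.34 FPKM in LL-PM2.5 and at 10.1 and 5.03 FPKM in LL-FA, the highest and the lowest library of the series. In LD-PM2.5 it stood at 8.27 and 9.94 FPKM and in LD-FA at 5.93 and 5.62 FPKM. Only the LL-FA pair overlapped every other group. On the FPKM scale the LD-PM2.5 libraries lay above those of LL-PM2.5 and of LD-FA. Means were 6.89 ± 0.768 FPKM in LL-PM2.5, 7.57 ± 3.6 in LL-FA, 9.11 ± 1.18 in LD-PM2.5 and 5.77 ± 0.216 in LD-FA (SD, n = 2 each). By mean, LD-PM2.5 was followed by LL-FA, then LL-PM2.5 and last LD-FA, and the LL-FA pair spanned both its neighbours. As CPM, Rora was at 83.6 and 99.9 in LL-PM2.5, at 107 and 74.1 in LL-FA, at 91.7 and 108 in LD-PM2.5 and at 75.8 and 80.8 in LD-FA. The LL-PM2.5 and LD-FA pairs have opposite orders in FPKM and CPM. As CPM the LD-PM2.5 and LL-PM2.5 pairs overlapped, so their separation holds on the FPKM scale only.

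The widest change of Rora was 0.36 ± 0.20 for LD-PM2.5 against LD-FA (edgeR adjusted p = 0.515), and it did not pass in any comparison. LL-PM2.5 against LL-FA gave 0.00 ± 0.19, and the interaction was -0.35 ± 0.28. The changes for constant light were -0.16 ± 0.19 in PM2.5 and 0.19 ± 0.20 in filtered air. LL-FA replicate 1, where Rora was highest, was also the library with the most muscle and adipocyte transcripts. Without it and LD-FA replicate 1, a choice made after seeing the data, the change for LL-FA against LD-FA was -0.10 ± 0.27. The antisense gene Gm15511 inside Rora was listed at 0 FPKM in all 8 libraries.

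**Figure D2:**
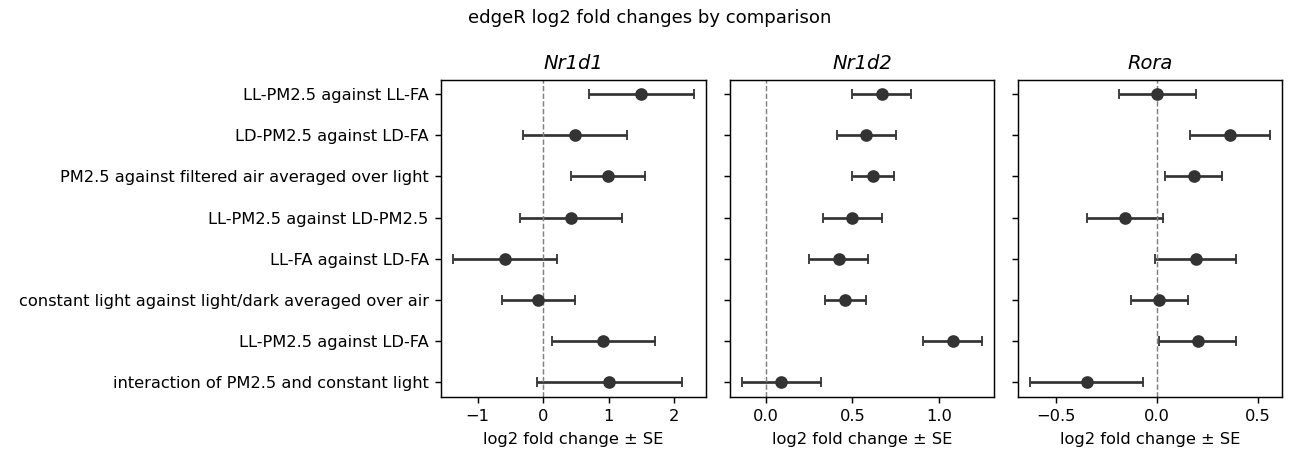
Log2 fold changes of the receptor genes in each comparison (points) with the SE of edgeR's quasi-likelihood fit (bars) and a dashed line at no change; the x scales differ between panels. Nr1d2 lies right of 0 in all 8, Nr1d1 has bars of 0.56 to 1.11, and Rora stays within 0.36 of 0.

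In no pairwise comparison did edgeR call a receptor gene or any other gene, so the share called was 0% throughout. In LL-PM2.5 against LL-FA, unadjusted p under 0.05 held for 547 genes (4.83%), DESeq2 called 58 (0.513%) and limma 1 (0.00884%). In LD-PM2.5 against LD-FA the same counts were 1240 (11%), 151 (1.33%) and 0. In LL-PM2.5 against LD-PM2.5 they were 1044 (9.23%), 141 (1.25%) and 1 (0.00884%), and in LL-FA against LD-FA 310 (2.74%), 43 (0.38%) and 0. In LL-PM2.5 against LD-FA they were 759 (6.71%), 96 (0.848%) and 1 (0.00884%). Nr1d2 was 1 of the 3 receptor genes in each unadjusted list and the only one, and DESeq2 called it in LL-PM2.5 against LD-FA alone of these 5. For the light average edgeR called 0 genes, with 641 (5.66%) at an unadjusted p under 0.05, Nr1d2 among them, 92 (0.813%) by DESeq2 and 1 (0.00884%) by limma. For the interaction edgeR called 0, with 552 (4.88%), 33 (0.292%) and 2 (0.0177%), and no receptor gene.

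Non-overlap of the 2 against 2 libraries, taken on FPKM, was common. Both LL-PM2.5 libraries lay above both LL-FA libraries in 9.65% of genes, Nr1d1 and Nr1d2 among them, and below in 11.6%. LD-PM2.5 lay above LD-FA in 24.6%, Nr1d2 and Rora among them, and below in 18.7%. LL-PM2.5 lay above LD-PM2.5 in 12.3%, with Nr1d2, and below in 18.3%, with Rora. LL-FA lay above LD-FA in 10.7%, with Nr1d2, and below in 11.3%, with Nr1d1. All 3 receptor genes lay higher in LL-PM2.5 than in LD-FA, as did 12.2% of genes, while 17.3% lay lower.

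Nr1d1 shares its locus with Thra, the gene of thyroid hormone receptor α, which is transcribed from the other strand (chromosome 11, 98740638 to 98769006). In GENCODE vM21 the genes overlap by 1075 bases, 98767932 to 98769006. Of these, 263 are exonic in both, which is 8.5% of the 3077 exonic bases of Nr1d1 and 5.7% of the 4614 of Thra, and 2 of the 9 Thra transcripts reach them. No source used here says whether strand was used in counting, so fragments in the shared exons cannot be told apart.

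**Figure D3:**
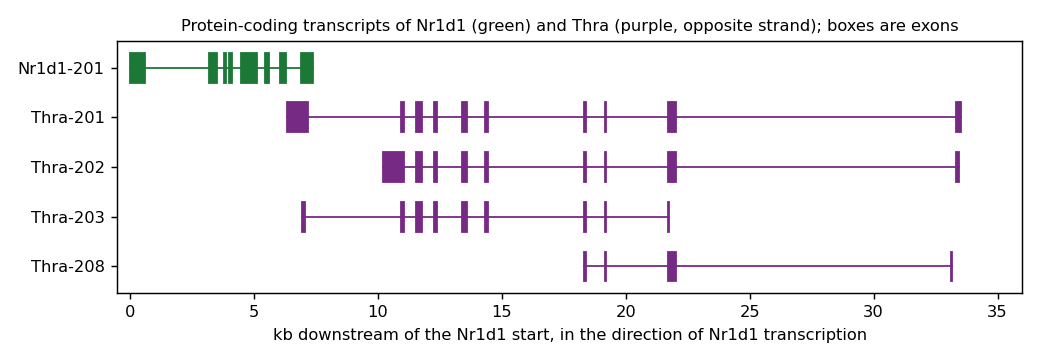
Exons (boxes) and introns (lines) of the protein-coding transcripts of Nr1d1 (green) and Thra (purple), drawn to scale in kb from the Nr1d1 start in its direction of transcription; Thra runs the other way. The last Nr1d1 exon meets the exon of Thra-201 and that of Thra-203, and the other Thra transcripts end before it.

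Thra did not follow Nr1d1. It stood at 5.19 and 4.19 FPKM in LL-PM2.5 and at 7.59 and 6.39 FPKM in LL-FA. In LD-PM2.5 it stood at 5.44 and 4.69 FPKM and in LD-FA at 7.82 and 8 FPKM. All 4 PM2.5 libraries lay below all 4 filtered air libraries, as in 1.81% of genes. The PM2.5 average was -0.59 ± 0.15 (edgeR unadjusted p = 0.00484, adjusted p = 0.396), with -0.59 ± 0.21 in constant light and -0.60 ± 0.21 in the light/dark cycle. In LD-PM2.5, where Nr1d1 differed 9.45-fold, the Thra pair differed 1.16-fold.

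The clock genes known as targets of ROR elements were Arntl, Clock, Npas2, Nfil3 and Cry1, all tested. None passed in edgeR in any comparison. For the PM2.5 average, 2 of the 5 had an unadjusted p under 0.05, Arntl and Npas2, against 10% of all tested genes. DESeq2 called both, each lower in PM2.5, against 1.42% of all tested genes, while limma called 0. Npas2 reached 1 FPKM only in the LD-FA pair, so it passed the filter only through a filtered air group where it was high. Its place in these counts was therefore partly set by the filter. In LL-PM2.5 against LL-FA all 5 had negative log2 fold changes, with a median of -0.59. In LD-PM2.5 against LD-FA 2 were negative and 3 positive, with a median of 0.30. The median of all tested genes lay between -0.01 and 0.01 in each comparison.

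Arntl was at 2.09 and 2.04 FPKM in LL-PM2.5 and at 6.10 and 4.88 FPKM in LL-FA. In LD-PM2.5 it was at 4.4 and 4 FPKM and in LD-FA at 6.75 and 6.35 FPKM. The groups did not overlap in either pair, with log2 fold changes of -1.37 ± 0.15 in constant light (edgeR adjusted p = 0.126) and -0.65 ± 0.14 in the light/dark cycle (adjusted p = 0.416). Non-overlap with PM2.5 lower was seen in 11.6% of all tested genes in constant light and in 18.7% in the light/dark cycle. Npas2, a CLOCK paralogue that pairs with BMAL1, was at 0.113 and 0.0357 FPKM in LL-PM2.5 and at 0.544 and 0.469 FPKM in LL-FA. It was at 0.413 and 0.0276 FPKM in LD-PM2.5 and at 1.17 and 1.41 FPKM in LD-FA. Its changes were -2.74 ± 0.92 and -2.52 ± 0.83 (edgeR adjusted p = 0.989 and 0.438).

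The other targets did not take the same course in both light regimes. Nfil3, a repressor at D-box elements, was at 11 and 9.34 FPKM in LL-PM2.5 and at 12 and 12.6 FPKM in LL-FA. In LD-PM2.5 it was at 20.9 and 26.7 FPKM, above the 13.7 and 16.8 FPKM of LD-FA. Its changes were -0.26 ± 0.17 and 0.66 ± 0.17 (edgeR adjusted p = 0.989 and 0.416). Cry1, a repressor of CLOCK and BMAL1, was at 2.90 and 2.71 FPKM in LL-PM2.5 and at 5.09 and 3.5 FPKM in LL-FA. It was at 2.85 and 15.1 FPKM in LD-PM2.5 and at 5.36 and 3.97 FPKM in LD-FA, so the LD-PM2.5 pair again spanned its baseline. Clock gave -0.38 ± 0.26 in constant light and 0.30 ± 0.26 in the light/dark cycle.

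Of 10 clock genes that share or control the E-box and D-box input of the REV-ERB genes, 9 were tested and Bhlhe41 was too low. None passed in edgeR. For the PM2.5 average 6 of the 9 had an unadjusted p under 0.05, against 10% of all tested genes. This list too was chosen with earlier results known, so its shares are description only. DESeq2, which called 1.42% of all tested genes, called 5 of the 9, Ciart, Dbp, Per1, Per3 and Tef, all higher in PM2.5, while limma called 0. Ciart and Per3 reached 1 FPKM in PM2.5 libraries only, so they were tested only because they were high there. Both count in the 6 and in the 5, so these counts were partly set by the filter. All 9 had positive log2 fold changes for PM2.5 in both light regimes, with medians of 0.82 in LL-PM2.5 against LL-FA and 1.67 in LD-PM2.5 against LD-FA. Ciart and Per3 enter this count and these medians as well, so the filter partly set them too. Dbp, an activator at D-box elements, was at 32.9 and 54.0 FPKM in LL-PM2.5 and at 3.86 and 9.08 FPKM in LL-FA. In LD-PM2.5 it was at 9.12 and 13.0 FPKM and in LD-FA at 2.77 and 2.05 FPKM. Its changes were 2.82 ± 0.38 in constant light and 2.21 ± 0.39 in the light/dark cycle (edgeR adjusted p = 0.322 and 0.382).

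Tef, a relative of Dbp, gave 0.81 ± 0.40 in constant light and 1.59 ± 0.41 in the light/dark cycle, and Hlf, the other member of that family, 0.10 ± 0.27 and 0.36 ± 0.27. The period genes, which encode repressors of CLOCK and BMAL1, gave 0.95 ± 0.54 and 1.67 ± 0.55 for Per1, 0.82 ± 0.69 and 2.21 ± 0.70 for Per2, and 1.53 ± 0.69 and 3.34 ± 0.77 for Per3. Ciart, a further repressor of that complex, gave 1.91 ± 0.81 and 2.89 ± 0.91. Cry2 gave 0.32 ± 0.34 and 0.69 ± 0.34, and Bhlhe40, an E-box repressor, 0.24 ± 0.38 and 0.27 ± 0.38. In LD-PM2.5 all 9 were higher in replicate 2, where Nr1d1 was at 5.55 FPKM, than in replicate 1, where it was at 52.5 FPKM. Per2 was at 1.85 and 9.33 FPKM and Per3 at 0.344 and 2.29 FPKM in replicates 1 and 2, a pattern noted after the values were seen.

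**Figure D4:**
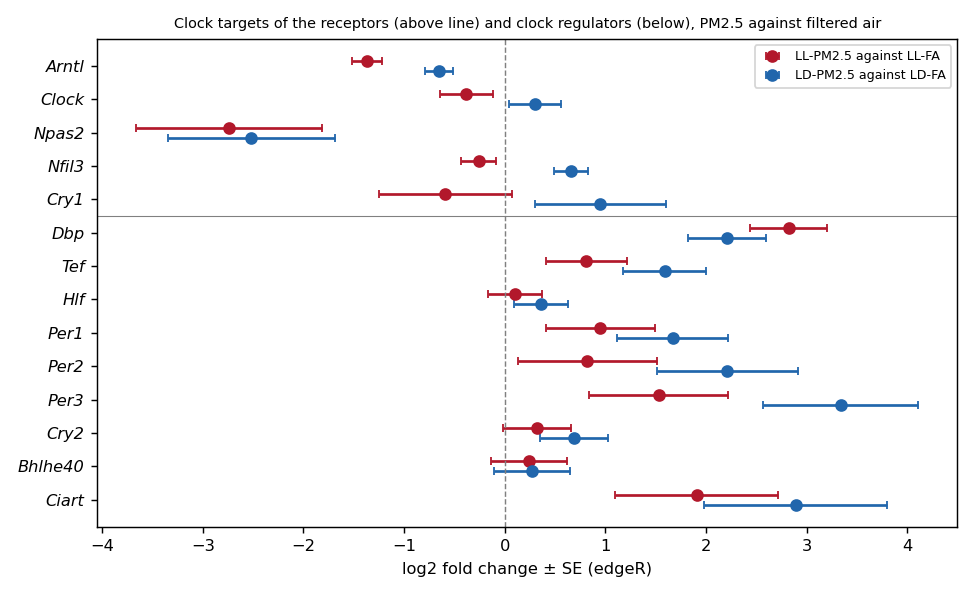
Log2 fold changes with SE (edgeR) for PM2.5 against filtered air of the clock targets (above the line) and of the clock regulators (below it), in constant light (red) and in the light/dark cycle (blue). All regulators lie right of 0, Arntl and Npas2 lie left of it in both, and Clock, Nfil3 and Cry1 lie on opposite sides.

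Across the 8 libraries, Nr1d2 followed the clock genes more closely than Nr1d1 did in size of r, though the difference between these correlations was not tested. On log2(FPKM + 1), 12 pairs were examined with exact two-sided permutation tests and adjustment over the 12. The permutations treated the 8 libraries as exchangeable, although they form 4 groups of 2. Their p-values therefore do not separate a relation between genes from shared differences between groups. Nr1d2 and Arntl had a Pearson r of -0.84 (exact permutation p = 0.00536, adjusted p = 0.0381) and a Spearman rho of -0.90 (exact permutation p = 0.00456, adjusted p = 0.0274). Nr1d2 and Dbp had an r of 0.85 (exact permutation p = 0.00635, adjusted p = 0.0381) and a rho of 0.93 (exact permutation p = 0.00223, adjusted p = 0.0268). Nr1d2 and Npas2 had an r of -0.82 (exact permutation p = 0.0108, adjusted p = 0.0433) and a rho of -0.81 (exact permutation p = 0.0218, adjusted p = 0.0871). Without the 2 libraries farthest from the median of Nr1d2, LL-PM2.5 replicate 1 and LD-FA replicate 2, r was -0.84, 0.81 and -0.69.

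These relations rest on few libraries. Leaving out any of 5 of the 8 libraries took the adjusted p of the Arntl and Dbp pairs over 0.05, with r between -0.90 and -0.76 for Arntl and between 0.81 and 0.89 for Dbp. For Npas2 any of 7 libraries did so, with r between -0.93 and -0.69. Arntl, Dbp and Nr1d2 each separate by exposure, so r includes the differences between group means. Taken as deviations from the group means, a calculation added after seeing the data in which each group of 2 gives 1 independent value, r of Nr1d2 was 0.55 with Arntl, 0.28 with Npas2 and -0.29 with Dbp. The sign was opposite to that over the libraries in all 3 pairs. Each of these r rests on 4 independent values and was not tested, so it cannot show whether the relations hold within groups.

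Nr1d1 had an r of -0.40 with Arntl (exact permutation p = 0.331, adjusted p = 0.66), 0.32 with Dbp and 0.00 with Npas2. The libraries farthest from its median are the LD-PM2.5 pair, and without them r was -0.79, 0.71 and -0.53. Nr1d1 and Nr1d2 had an r of 0.46 (exact permutation p = 0.248, adjusted p = 0.622), and 0.63 without the LD-PM2.5 pair. Rora had an r of -0.08 with Arntl, -0.45 with Npas2 and 0.09 with Dbp. With Nr1d1 its r was -0.20 and with Nr1d2 0.34. No pair outside the 3 of Nr1d2 passed by r or by rho.

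**Figure D5:**
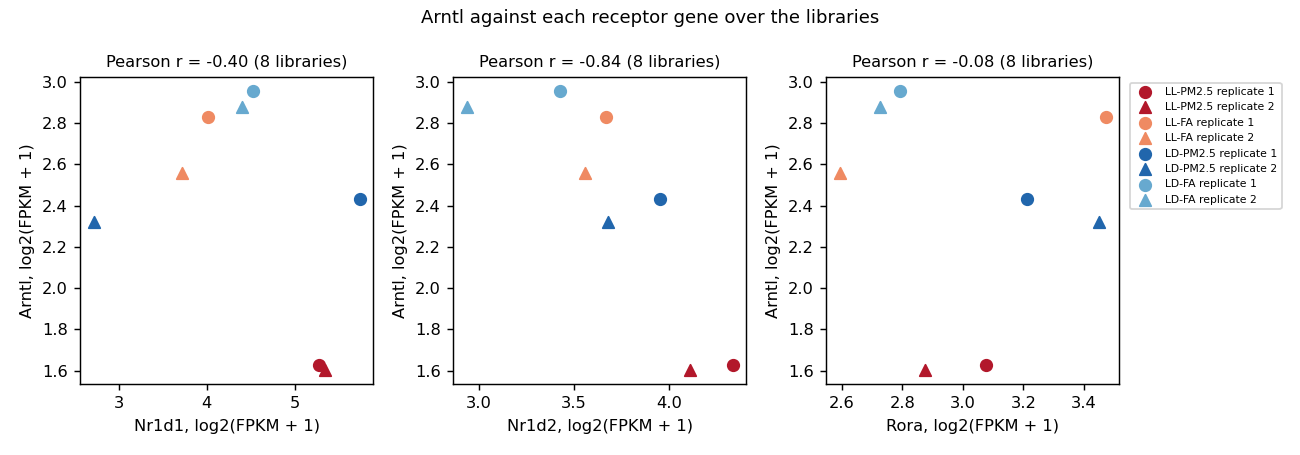
Arntl against Nr1d1, Nr1d2 and Rora in the 8 libraries, both axes in log2(FPKM + 1), coloured by group with a shape for each replicate. Points descend with Nr1d2 (r = -0.84), whereas LD-PM2.5 replicates 1 and 2 lie at the far right and far left for Nr1d1 (r = -0.40).

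The machinery through which the receptors act was less variable. Of 6 corepressor genes, 0 passed in any comparison by edgeR, DESeq2 or limma, and for the PM2.5 average 0 had an unadjusted p under 0.05. For the PM2.5 average their median log2 fold change was 0.17, and Ncor1, the REV-ERB corepressor, gave 0.29 ± 0.20, the NCoR complex subunit Gps2 0.21 ± 0.11 and Hdac3 -0.13 ± 0.09. Ncor1 was at 9.99 and 5.75 FPKM in LL-PM2.5 and at 10.5 and 6.39 FPKM in LL-FA. It was at 12.9 and 12 FPKM in LD-PM2.5 and at 6.91 and 9.02 FPKM in LD-FA, so its groups overlapped in constant light and not in the light/dark cycle. LD-PM2.5 lay above LD-FA in 24.6% of all tested genes, and LL-PM2.5 above LL-FA in 9.65%. Of 5 ROR coactivator genes, 0 likewise passed by these tools or reached an unadjusted p under 0.05 for the PM2.5 average, and their median was 0.17 for the PM2.5 average. The smallest p in that list belonged to Crebbp, a histone acetyltransferase, at 0.29 ± 0.14 (edgeR adjusted p = 0.519). Ppargc1a, the coactivator PGC-1α, gave 0.17 ± 0.16.

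Of 18 hepatic genes known as targets of REV-ERB or ROR, 16 were tested, the others being too low, and none passed in edgeR. For the PM2.5 average 6 of the 16 had an unadjusted p under 0.05, 3 in each direction, against 10% of all tested genes. Because this list was also chosen with earlier results known, its shares are description only. DESeq2, which called 1.42% of all tested genes, called 5 of the 16, with Cyp8b1 and Elovl3 lower and Pck1, Apoa5 and Por, the P450 oxidoreductase, higher in PM2.5, and limma called 0. In the whole list 10 were negative and 6 positive, with a median of -0.14. Cyp8b1, the sterol hydroxylase of bile acid synthesis, was at 162 and 99.9 FPKM in LL-PM2.5 and at 225 and 301 FPKM in LL-FA. It was at 152 and 131 FPKM in LD-PM2.5 and at 332 and 290 FPKM in LD-FA. The average change was -1.08 ± 0.17 (edgeR adjusted p = 0.31), with no overlap between PM2.5 and filtered air in either light regime. Every PM2.5 library lay below every filtered air library, as in 1.81% of genes.

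Elovl3, a fatty acid elongase, was at 212 and 131 FPKM in LL-PM2.5 and at 485 and 454 FPKM in LL-FA. It was at 329 and 123 FPKM in LD-PM2.5 and at 537 and 513 FPKM in LD-FA, an average change of -1.39 ± 0.24 (edgeR adjusted p = 0.325). Again no PM2.5 library reached a filtered air library, as in 1.81% of genes. Pck1, the gluconeogenic enzyme PEPCK, gave 0.77 ± 0.16 (adjusted p = 0.361) and Apoa5, an apolipoprotein that lowers plasma triglyceride, 0.60 ± 0.17 (adjusted p = 0.407). For the light average the smallest p was that of Avpr1a, a vasopressin receptor, at -0.70 ± 0.13 (edgeR adjusted p = 0.267). It was at 9.44 and 10 FPKM in LL-PM2.5, 11.2 and 12.7 FPKM in LL-FA, 13.2 and 19.4 FPKM in LD-PM2.5, and 19.2 and 19.4 FPKM in LD-FA. G6pc, the catalytic subunit of glucose-6-phosphatase, gave 1.41 ± 0.43 in LL-PM2.5 against LL-FA and -1.71 ± 0.43 in LL-FA against LD-FA.

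Heme is the REV-ERB ligand, and 11 genes of its synthesis and breakdown were tested. None passed in edgeR. For the PM2.5 average 2 of the 11 had an unadjusted p under 0.05, against 10% of all tested genes. None were called by DESeq2 or limma, and 8 were negative and 3 positive, with a median of -0.12. Alas1, the rate-limiting enzyme of heme synthesis in liver, was at 62.0 and 30.2 FPKM in LL-PM2.5 and at 70.4 and 164 FPKM in LL-FA. It was at 160 and 191 FPKM in LD-PM2.5 and at 42.5 and 49.9 FPKM in LD-FA. The change was -1.33 ± 0.42 in constant light and 1.93 ± 0.43 in the light/dark cycle (edgeR adjusted p = 0.989 and 0.416), and DESeq2 called both. The erythroid marker sums given above moved the opposite way to Alas1 in each light regime, and their part in this difference was not tested. Alad, the next enzyme, gave -0.26 ± 0.08 for the PM2.5 average, and Hmox1, which breaks heme down, 0.64 ± 0.27 (edgeR adjusted p = 0.421 and 0.495).

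Of 7 genes of REV-ERB protein turnover, 6 were tested, Cdk1 being too low, and none passed in any comparison by edgeR, DESeq2 or limma. The PM2.5 median was 0.17, with 1 of the 6 at an unadjusted p under 0.05, against 10% of all tested genes. This was Spsb4, an adaptor of a ubiquitin ligase, at -0.43 ± 0.14 (edgeR adjusted p = 0.425). Gsk3b, the kinase that stabilises REV-ERBα, gave 0.20 ± 0.12. Of the hepatic tethering factors, Onecut1 and Onecut2 were tested, and Hnf4a was left out by its status. Neither passed in edgeR or limma, and DESeq2 called Onecut2 in LD-PM2.5 against LD-FA. Onecut1 was at 2.00 and 1.13 FPKM in LL-PM2.5 and at 2.34 and 11.1 FPKM in LL-FA. It was at 8.68 and 3.78 FPKM in LD-PM2.5 and at 1.10 and 2.52 FPKM in LD-FA. Onecut2 gave 0.39 ± 0.15 for the PM2.5 average (edgeR adjusted p = 0.469). In bulk liver RNA, fewer cells of a type and less RNA per cell cannot be told apart, here or for the receptor genes.

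The genes most like each receptor gene over the 8 libraries were ranked by Pearson r of log2(FPKM + 1) among 6443 tested genes with a mean of at least 5 FPKM. The points share library, depth and group, and r is a description. For Nr1d1 the 5 highest were Agxt2, a mitochondrial aminotransferase, at 0.924, Timm21, a mitochondrial import subunit, at 0.922, Serpina7, thyroxine-binding globulin, at 0.921, Rab32 at 0.908 and Fgfr1op2 at 0.900. The 3 lowest were Ttc23 at -0.972, Lims2 at -0.940 and Tmem41a at -0.940. The LD-PM2.5 pair holds the highest and the lowest level of Nr1d1, so this ranking depends much on that pair, and it was not repeated without it. In LD-PM2.5 replicates 1 and 2, Agxt2 was at 68.2 and 54.6 FPKM and Ttc23 at 10.2 and 17.2 FPKM. For Nr1d2 the highest were Gm6170 at 0.935, Ugcg, the glucosylceramide synthase, at 0.925, Entr1 at 0.925, Elovl2, a fatty acid elongase, at 0.924 and Tmed5 at 0.921. The lowest were Ehd1, a protein of endocytic recycling, at -0.960, Tjp3, a tight junction protein, at -0.942 and the integrin gene Itgb5 at -0.935. For Rora the highest were Pde4dip at 0.945, Usp33 at 0.943, Thrb, the gene of thyroid hormone receptor β, at 0.941, Nf2 at 0.940 and Klhl25 at 0.940. The lowest were Dhx16 at -0.987, Psmg4 at -0.979 and Trip6 at -0.978.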

How the data were processed

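Liver RNA-seq of 8 libraries was used as deposited. The submitters' processing notes name STAR, Cufflinks, Cuffdiff and the build mm10. No source used here gives their versions, options or annotation release. Per the file headers, the authors' table gives an estimated count of fragments per gene and library, and FPKM, scaled by the authors for length and depth. Of the deposited fragment values above 0, 97.4% lay within 0.01 of a whole number, and all were rounded for testing. Of 48432 genes listed, 48051 IDs matched a symbol in GENCODE vM21 when version suffixes were ignored. Genes with another status than OK, 47 in number, were left out, and entries of 62 symbols were added together.

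The edgeR quasi-likelihood test (edgeR 4.0.16, R 4.3.3, TMM scaling) was fitted to all 8 libraries as 4 group means, which leaves 4 residual degrees of freedom, on the 11316 genes that reached 1 FPKM in 2 or more libraries. Two-sided p-values were adjusted by Benjamini-Hochberg over those genes, with a threshold of 0.05. The SE was taken from the test, as the size of the log2 fold change over the root of F. Its median was 0.19 between groups, the precision that 22215000 to 31819000 fragments and 2 libraries a group give. The biological coefficient of variation was 21.4%. Replicates were compared by chi-square of their fragments, which was 41.6 to 88.7 per degree of freedom, so each counted as 1 sample. The scripts were tested on simulated data. Alternatives used limma 3.58.1 on log2(FPKM + 1) or log2(FPKM + 0.1), DESeq2 1.42.0, other filters and scaling, and left-out libraries. Correlations used Python 3.11.15 with scipy 1.17.1, and figures matplotlib 3.10.9.

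The receptor genes and the 8 gene lists were chosen with earlier results of these data known. Named are the receptor genes, Thra, all clock list genes, and from each other list up to 4 genes of smallest p in the comparison described. Some genes of the lists are not reported here by name.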

Additional observations from a re-analysis of the deposited data

Results flagged for a closer look

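For 4 of the 64 tested genes of the lists, the receptor genes and Thra included, every PM2.5 library lay on one side of its filtered air libraries in constant light and on the opposite side in the light/dark cycle. The same held for 318 of 11316 tested genes, or 2.81%. None of these differences passed in the edgeR interaction test after adjustment over all genes. Alas1, of heme synthesis, had an interaction of -3.26 ± 0.61 (edgeR unadjusted p = 0.000833, adjusted p = 0.843). For Alas1 the effects of constant light were opposite in PM2.5 and in filtered air as well, which is the same interaction of -3.26. That pattern held for 1 of the 64, and for 2.78% of all tested genes. Onecut1, a hepatic transcription factor, had -3.83 ± 1.10 (edgeR unadjusted p = 0.00936), with LL-PM2.5 at 2.00 and 1.13 FPKM, LL-FA at 2.34 and 11.1, LD-PM2.5 at 8.68 and 3.78, and LD-FA at 1.10 and 2.52. G6pc had 2.24 ± 0.60 (edgeR unadjusted p = 0.00657), with LL-PM2.5 at 218 and 84.5 FPKM, LL-FA at 70.7 and 42.8, LD-PM2.5 at 140 and 72.8, and LD-FA at 184 and 180. Nfil3, the D-box repressor, had -0.92 ± 0.24 (edgeR unadjusted p = 0.00557). The adjusted p was 0.843 for each of the 4.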

How the results depend on the processing

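Over 24 values of the receptor genes and their alternatives, 423 in all, 387 kept direction and side of the threshold, 29 turned sign and 7 passed only under the alternative. The 29 include Nr1d1 in LD-PM2.5 against LD-FA without LD-PM2.5 replicate 1, at -1.93, where 1 library was left in that group. The cause was not tested unless named. Without the filter on low genes, counts of called genes were 476 (LL-PM2.5 against LL-FA), 647 (LD-PM2.5 against LD-FA), 358 (LL-PM2.5 against LD-PM2.5), 201 (LL-FA against LD-FA), 486 (LL-PM2.5 against LD-FA), 696 (PM2.5 average), 291 (light average) and 239 (interaction), against 0 and, for the PM2.5 average, 2. In the same order DESeq2 gave 58, 151, 141, 43, 96, 161, 92 and 33. Nr1d1 then passed without the filter at 1.51 in LL-PM2.5 against LL-FA and at 0.99 in the PM2.5 average (adjusted p = 0.00111). Nr1d2 passed at 0.67 (adjusted p = 0.0388), 0.62 (0.00114) and, in LL-PM2.5 against LD-FA, 1.07 (5.27e-05), and with DESeq2 at 0.62 and 1.09.

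Counts from limma on log2(FPKM + 1) were 1 in LL-PM2.5 against LL-FA, LL-PM2.5 against LD-PM2.5, LL-PM2.5 against LD-FA and the light average, and 2 in the interaction, and with 0.1 added 1 in the PM2.5 average. A filter at 5 FPKM gave 2 in LL-PM2.5 against LD-FA and 0 in the PM2.5 average. The next settings were added after seeing the data. A robust prior gave 1 in LL-PM2.5 against LL-FA and in LL-PM2.5 against LD-FA. Leaving out LL-FA replicate 1 and LD-FA replicate 1 gave 1 in LD-PM2.5 against LD-FA and 0 in the PM2.5 average, with Rora at -0.10 in LL-FA against LD-FA and -0.13 in the light average, and Nr1d2 at -0.22 in the interaction.

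With 1 and with 0.1 added, limma turned Nr1d1 in LD-PM2.5 against LD-FA to -0.23 and -0.29 and in the light average to 0.25 and 0.27. It turned Rora to -0.06 and -0.06 in LL-PM2.5 against LL-FA and to -0.04 and -0.05 in the light average, and Nr1d2 to -0.03 and -0.05 in the interaction. Deviations of same-numbered libraries correlated at over 0.1 in 4 of the 6 pairs of groups and at 0.02 and -0.37 in the others, so no pairing was assumed. A replicate block moved the count of calls in no comparison (2 in the PM2.5 average), turned Nr1d1 to 0.10 in the light average and gave it 0.14 in LD-PM2.5 against LD-FA.

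Leaving out each library in turn, with a lone library assumed to vary like the other groups, gave 0 to 10 calls in LL-PM2.5 against LL-FA, 0 to 36 in LD-PM2.5 against LD-FA, 0 to 4 in LL-PM2.5 against LD-PM2.5, 0 to 0 in LL-FA against LD-FA, 0 to 7 in LL-PM2.5 against LD-FA, 0 to 17 in the PM2.5 average, 0 to 1 in the light average and 0 to 0 in the interaction. Nr1d1 ranged from -1.93 to 1.35 in LD-PM2.5 against LD-FA, -0.42 to 2.85 in LL-PM2.5 against LD-PM2.5, -0.22 to 1.42 in the PM2.5 average and -0.49 to 1.14 in the light average. Rora ranged from -0.22 to 0.26 in LL-PM2.5 against LL-FA, -0.06 to 0.42 in LL-FA against LD-FA and -0.11 to 0.13 in the light average, and Nr1d2 from -0.09 to 0.27 in the interaction. Of 108 correlation values 83 kept their call, 18 lost it and 7 turned sign. With 0.1 added r was -0.75 for Nr1d2 and Npas2 (exact permutation, adjusted p = 0.119). Ranges of r were -0.90 to -0.76, -0.93 to -0.69 and 0.81 to 0.89 for Nr1d2 with Arntl, Npas2 and Dbp, -0.48 to 0.18 for Nr1d1 with Npas2, -0.45 to 0.27 for Nr1d1 with Rora, -0.32 to 0.06 for Rora with Arntl and -0.11 to 0.32 for Rora with Dbp.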
